A study of Homo sapiens with 12 samples.

Results

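The collagens and laminins are the chains from which the insoluble scaffold around cells is built. The rule took every gene whose platform symbol has the form of a collagen chain (COL, a number, A, a number) or a laminin chain (LAMA, LAMB or LAMC and a number), read by probe sets that the annotation assigns to that 1 symbol. It found 53 genes, 43 collagens and 10 laminins, of 19775 genes with such a probe set. They were read by 135 probe sets in all, and each gene was represented by its brightest set, taken by the mean of all 12 arrays. The choice used names and overall brightness and no difference between groups. COL17A1 and LAMA3 were not analysed here.

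The study measured total RNA of Ishikawa cells, an established human endometrial adenocarcinoma line, on Affymetrix U133 Plus 2.0 arrays, 12 in 4 groups of 3. All cells grew in RPMI medium with 10% serum and were transfected with an siRNA for 48 h before a peptide was given for 24 h. Each of 2 siRNAs, a negative control and one against GPR54, was combined with each of 2 peptides, a control peptide and metastin-10 at 10 µM. No group was left untransfected or without peptide. The stated question was which transcripts shift with metastin-10, the C-terminal peptide of kisspeptin, and whether its receptor GPR54, the product of KISS1R, is needed for it. A single cell line stands behind every value, and nothing in the labels ties the replicates to separate thaws or passages beyond the word biological, so the p-values measure the spread between these arrays.

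Each collagen is a triple helix of 3 alpha chains, and each laminin is a trimer of an alpha, a beta and a gamma chain. Epithelial cells lay down laminin and network-forming collagen IV as the basement membrane they sit on, while fibrillar collagens such as types I, III and V form the fibres of the stroma beneath and are made mostly by fibroblasts. Collagen VI forms beaded filaments that link the basement membrane region to the stroma, and FACIT collagens decorate fibrils. In the endometrium this matrix is rebuilt with each cycle, and a carcinoma crosses it when it invades.

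Values below are the authors' log2 RMA values, in which 1 unit is a 2-fold change. The 12 arrays correlated at between 0.992 and 0.998, with medians between 5.13 and 5.22. KISS1R checked the siRNA labels: its mean was 9.28 ± 0.13 (SD, n = 3) for the control peptide after control siRNA and 9.42 ± 0.05 for the same peptide after GPR54 siRNA, a difference of 0.14 (95% interval -0.07 to 0.35), so the targeted transcript was not lower in the arrays that carry its siRNA label. By array it read 9.39, 9.32 and 9.14 with both controls, 8.43, 8.42 and 8.35 when metastin-10 followed control siRNA, and, under the GPR54 label, 9.46, 9.45 and 9.36 with control peptide and 9.60, 9.42 and 9.28 with metastin-10. After control siRNA it was thus lower with metastin-10 than with control peptide, by -0.88 (95% interval -1.09 to -0.67). With metastin-10 it was higher under the GPR54 label than after control siRNA, by 1.03 (0.82 to 1.24). Its lowest values were in arrays labelled control siRNA. Arrays with the GPR54 label are therefore called the arrays labelled GPR54 siRNA, and a direction drawn from either siRNA label rests on the label alone. The 4 replicate 3 arrays stood apart, with a beta-actin 3 prime minus 5 prime probe set difference, a sign of RNA or labelling quality, of 0.29 to 0.36 against 0.66 to 0.90 in the other 8. Epithelial identity was clear, since 8 of 8 epithelial markers (among them EPCAM and the keratins KRT8, KRT18 and KRT19) lay well above the array median. Of other cell types that could have made matrix, 0 of 8 stromal fibroblast markers, 0 of 7 endothelial and 0 of 4 measured leukocyte markers (6 listed) did so. The endothelial markers ran from -2.12 (KDR) to 1.81 (VWF) against the median, 3 of them below it.

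Well above the array median means here a mean, over the 12 arrays, of 2 or more log2 units over the median of its own array. By this rule 15 of the 53 genes were well above, and 29 lay above the median at all. Those 15 include chains of the basement membrane: 3 chains of collagen IV (COL4A1, COL4A2, COL4A5) and 5 laminin chains, one of the alpha class (LAMA5), all but LAMB4 of the beta class (LAMB1, LAMB2, LAMB3) and one of the gamma class (LAMC1). Together LAMA5, a beta chain (LAMB1 or LAMB2) and LAMC1 are the chains of the common epithelial laminins, and LAMB3 is the beta chain of the laminin that anchors skin and other epithelia. COL18A1, a basement membrane multiplexin and the source of endostatin, was there too. The other 6 were the fibrillar chains COL1A1 and COL2A1, COL6A1 of collagen VI, and the FACIT chains COL12A1, COL9A2 and COL9A3. The cut was not sharp: COL2A1 lay just inside it at 2.01, and COL6A2 (1.68) and COL26A1 (1.63) just outside.

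**Figure D1:**
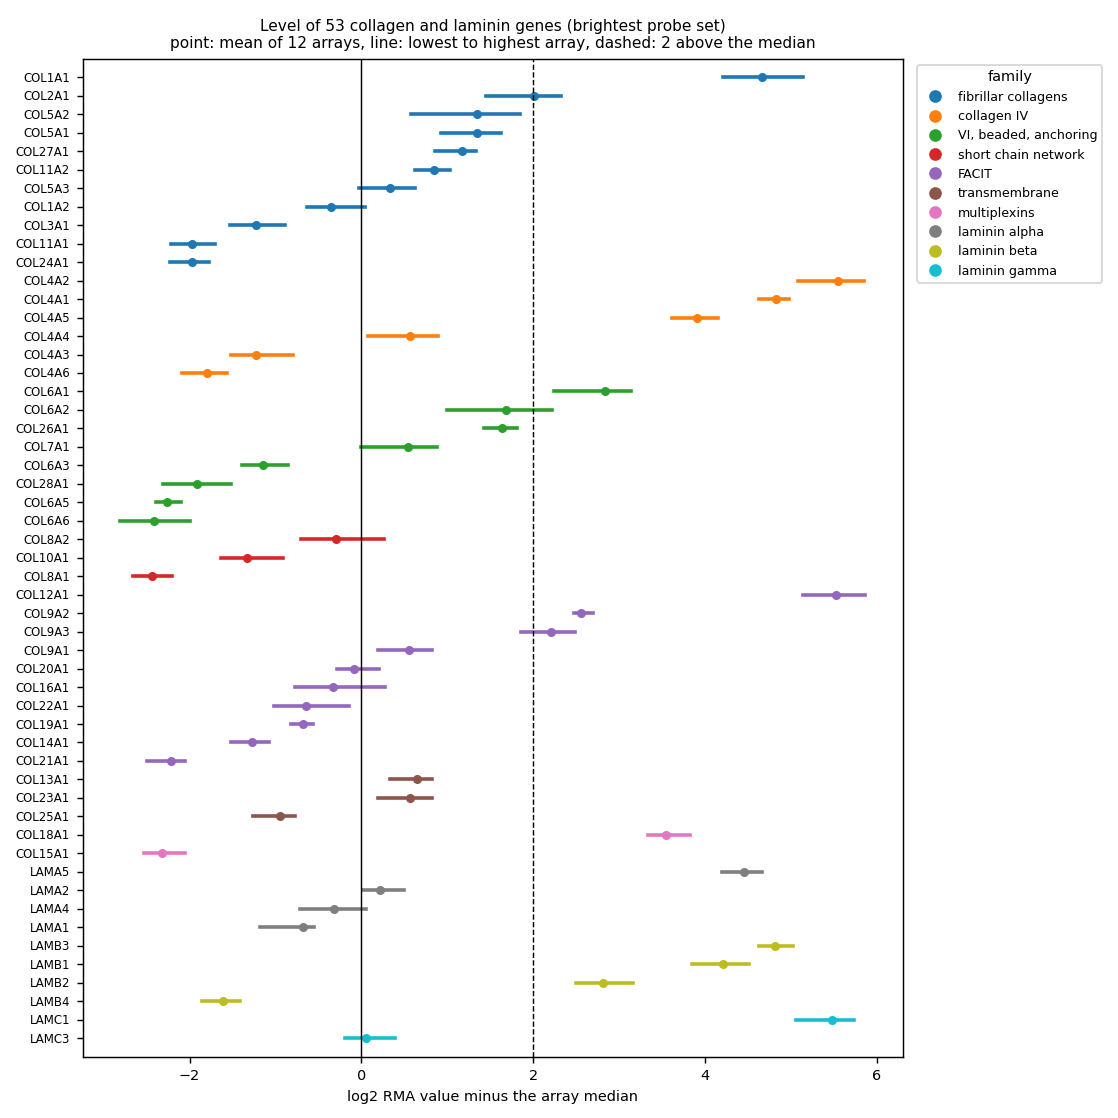
Level of each of the 53 genes at its brightest probe set, as log2 RMA value minus the median of its own array. Points are means of 12 arrays, lines run from the lowest to the highest array, colours are families, and the dashed line marks 2, which 15 genes reached.

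Several chains that commonly assemble with a partner chain stood at positions unlike that partner's. Probe sets differ in brightness for reasons other than RNA amount, and no order of RNA levels is read from them. COL1A1 lay 4.67 above the median, while COL1A2, the second chain of type I collagen, lay at -0.35. COL6A1 lay at 2.83 and its partners COL6A2 and COL6A3 at 1.68 and -1.14. COL3A1, the stromal collagen that usually accompanies type I, lay at -1.22. The transcripts lowest against the median were COL8A1 at -2.44 and COL6A6 at -2.41. A probe set below the median cannot show that its gene was silent, since the background level is unknown.

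Which probe set stands for a gene mattered much for this picture. Of the 53 genes 42 had more than 1. The 2 probe sets of COL4A5 lay at 3.91 and -1.04, and those of COL4A2 at 5.54 and 2.65. COL1A1 was read at 4.67 by its brightest set, at 2.24 by the next and at -0.43 by the dimmest of 5. Both sets of LAMC1 lay well above the median, at 5.48 and 4.48.

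COL4A1 and COL4A2 encode the alpha chains of the ordinary collagen IV network and lie head to head on chromosome 13. Their promoter is shown because 1 stretch of DNA serves both, and both were among the genes well above the median. Their 300-base windows in RefSeq (GRCh38.p14), each from 250 bases before to 50 after the annotated start, were chr13:110307108-110307407 on the minus strand for COL4A1 and chr13:110307034-110307333 on the plus strand for COL4A2. The windows share 226 bases, and the annotated starts are 127 bases apart. The COL4A1 window is printed 5′ to 3′ on its own strand, with CCAAT and GGGCGG on either strand in capitals (ATTGG and CCGCCC are the same motifs read on the opposite strand):
COL4A1 window: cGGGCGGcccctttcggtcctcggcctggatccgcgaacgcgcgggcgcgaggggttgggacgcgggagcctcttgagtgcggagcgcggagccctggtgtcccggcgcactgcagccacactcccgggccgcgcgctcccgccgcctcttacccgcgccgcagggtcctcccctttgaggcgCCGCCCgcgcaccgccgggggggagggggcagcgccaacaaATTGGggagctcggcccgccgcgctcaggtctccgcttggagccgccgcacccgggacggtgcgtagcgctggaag
CCAAT, the letters of the NF-Y box, occurred once in each gene's window and in 34.6% of all 35116 windows of the same length. GGGCGG, the GC box bound by Sp1, occurred 2 times in the COL4A1 window and 1 time in that of COL4A2, against 45% of all windows with at least 1. These matches describe the letters only. Of the 53 genes, 39 matched an entry of the promoter table, and COL6A1 and COL5A2, taken up below, did not.

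Neither gene of the pair passed the test in any comparison. In arrays of replicates 1, 2 and 3, COL4A1 read 9.98, 10.07 and 9.99 with control siRNA and control peptide, 10.05, 10.16 and 10.01 with control siRNA and metastin-10, 10.06, 10.01 and 9.89 under the GPR54 label and control peptide, and 9.92, 9.98 and 9.83 under that label and metastin-10. COL4A2 read, in the same order, 10.72, 10.99 and 10.44, then 10.83, 10.86 and 10.55, then 10.90, 10.90 and 10.38, then 10.80, 10.84 and 10.29. The groups overlapped for both genes except that COL4A1 under the GPR54 label and metastin-10 lay wholly below that with control siRNA and metastin-10. For COL4A2 replicate 3 was the lowest array of every group. The metastin-10 difference under control siRNA was 0.06 (95% interval -0.12 to 0.24) for COL4A1 and 0.03 (-0.37 to 0.43) for COL4A2, so a change of COL4A1 beyond 0.24 either way lay outside its interval.

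The principal question was what metastin-10 did under control siRNA. In limma with Benjamini-Hochberg adjustment over 54613 probe sets, 2 of the 53 genes were lower with metastin-10 and 0 were higher. They were COL6A1, which encodes a chain of the beaded filament collagen VI, and COL5A2, which encodes a chain of the type V collagen that nucleates type I fibrils. Their brightest probe sets lay 2.83 and 1.35 above the array median, and neither is a network chain of the basement membrane. Over all 19775 genes 0.531% were lower, 0.0759% higher and 0.607% either by the same call.

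COL6A1 read 8.14, 8.22 and 8.03 with control peptide and 7.48, 7.43 and 7.53 with metastin-10. All 3 metastin-10 arrays lay below every other array of the study, since those labelled GPR54 siRNA read 8.23, 8.25 and 8.08 with control peptide and 8.26, 8.29 and 8.10 with metastin-10. The difference under control siRNA was -0.65 ± 0.09 (SE), 1.57-fold lower (95% interval -0.84 to -0.46), with an adjusted p of 0.00635 in limma. COL6A1 stayed past the threshold with each of the 12 arrays left out in turn. The same-numbered arrays differed by -0.66, -0.79 and -0.50.

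COL5A2 read 6.90, 6.86 and 6.52 with control peptide and 5.97, 5.94 and 5.73 with metastin-10. It too was lower in these 3 arrays than in any other, against 6.99, 6.77 and 6.64 under the GPR54 label and control peptide and 6.79, 6.83 and 6.27 under it and metastin-10. The difference was -0.88 ± 0.16 (SE), 1.84-fold lower (95% interval -1.22 to -0.54), with an adjusted p of 0.0316 in limma. Without single arrays this call was the less firm of the pair, while with the mean of probe sets it was the one kept. It was lost, at adjusted p values between 0.0606 and 0.175, when any of 6 single arrays was left out: control siRNA with control peptide replicate 1 or 2, control siRNA with metastin-10 replicate 1, 2 or 3, or replicate 2 of the GPR54 label and control peptide. In a fit to the 6 arrays of this comparison alone its adjusted p was 0.0538.

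**Figure D2:**
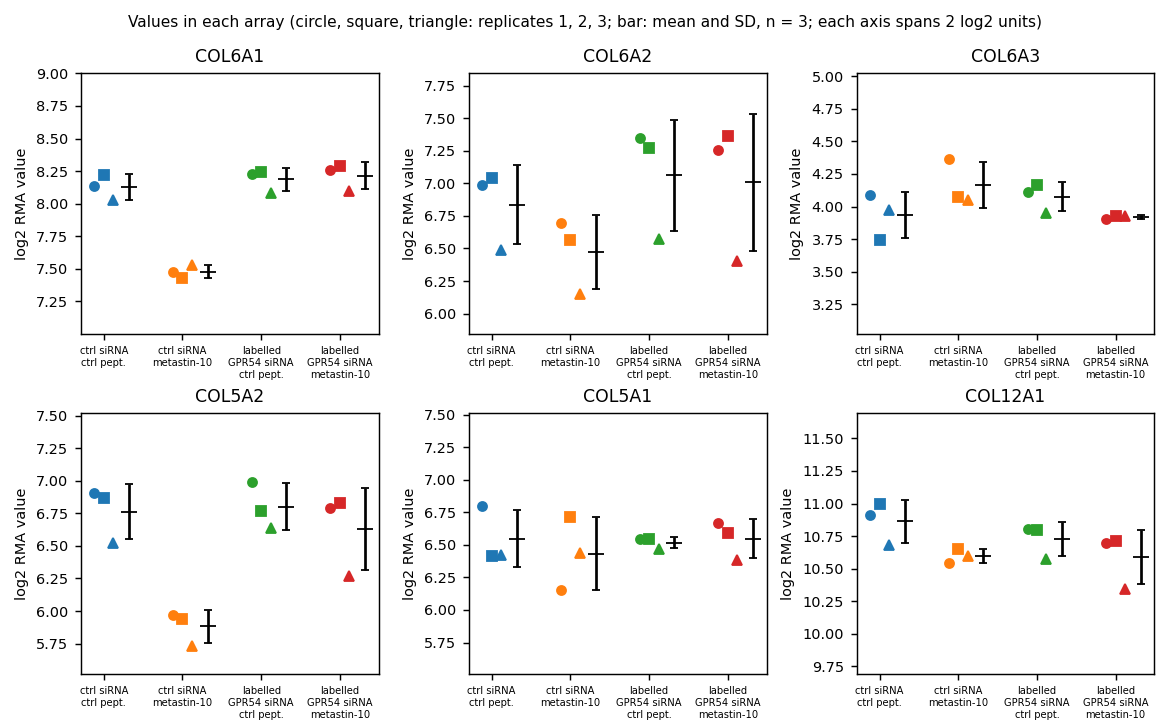
Log2 RMA values of 6 chains of collagens V, VI and XII in each array by group (circle, square and triangle are replicates 1, 2 and 3, and bars are the mean and SD of 3 arrays). COL6A1 and COL5A2 are lower in the control siRNA arrays with metastin-10 than in all others, and replicate 3 is the lowest array of every group for COL6A2 and COL5A2.

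The partner chains of these 2 collagens did not pass the test. COL6A2, the second chain of collagen VI, read 6.98, 7.04 and 6.49 with control peptide and 6.70, 6.57 and 6.15 with metastin-10, and it is given per array here because it changes calls in blocked fits, a choice made after its values were seen. Its groups overlapped, and its difference was -0.36 (95% interval -0.94 to 0.21), or -0.54 without control siRNA with control peptide replicate 3 and -0.20 without control siRNA with metastin-10 replicate 3. COL6A3, the largest chain of collagen VI, differed by 0.23 (-0.01 to 0.47), with the opposite sign. COL5A1, the main chain of collagen V, differed by -0.11 (-0.42 to 0.20). The interval of COL6A2 takes in a fall the size of that of COL6A1, while that of COL6A3 does not, and that of COL5A1 takes in no fall the size of that of COL5A2.

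Probe sets of COL6A1 disagreed, and this bears on the call. Besides the brightest, whose difference was -0.65, the next brightest gave -0.33 (adjusted p = 0.216 in limma), with the 3 metastin-10 arrays at 5.91, 5.85 and 5.84 against 6.05, 6.39 and 6.16. The other 6 gave values from -0.07 to 0.19. Of those 6, 3 lay within 1 log2 unit above the array median and 3 below it. Averaging all 8 gave -0.09 with an adjusted p of 0.603, which ends the call. For COL5A2 the second probe set gave -0.79 (adjusted p = 0.0793), close in size to the first. Over all the genes, 51 of the 82 probe sets beyond the brightest had the sign of the brightest in this comparison, and 0 passed the threshold.

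**Figure D3:**
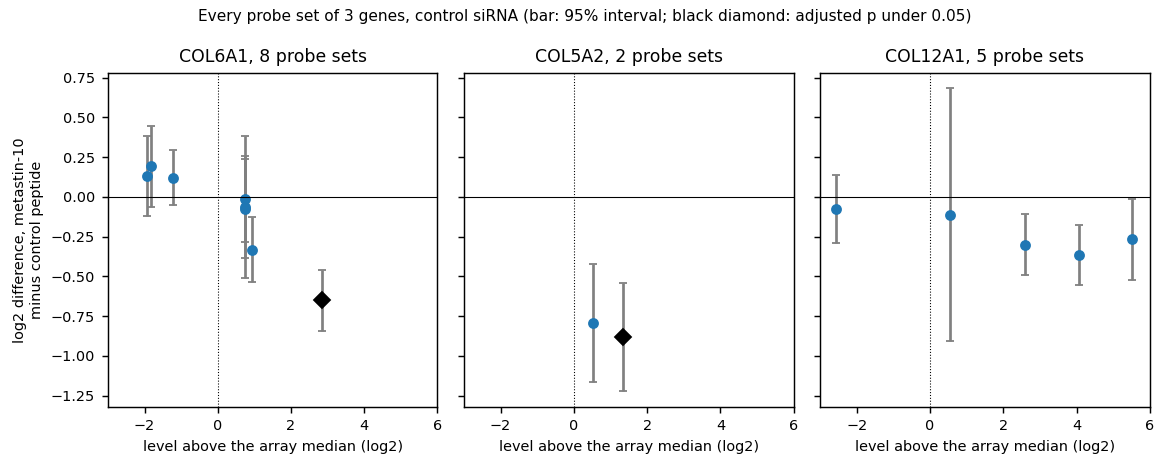
Metastin-10 minus control peptide under control siRNA (log2, bars are 95% intervals of the limma fit) for every probe set of COL6A1, COL5A2 and COL12A1, against its level above the array median. The COL6A1 set with -0.65 is the brightest of 8, while the COL5A2 sets lie at -0.88 and -0.79.

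Beyond COL6A1 and COL5A2 no gene of any family passed in this comparison. Fibrillar collagens other than COL5A2 ran up to 0.24 (COL11A2), and 7 of all 11 lay below 0. COL2A1, the cartilage fibril chain, read 7.46, 7.40 and 7.12 with control peptide and 6.66, 6.99 and 6.93 with metastin-10, with no overlap and a difference of -0.47 (adjusted p = 0.229 in limma). Of the 8 genes of collagen VI and other beaded or anchoring collagens, COL28A1 differed by -0.49 (adjusted p = 0.103) and COL6A6 by 0.48 (adjusted p = 0.236). Both were read from dim probe sets, at -1.91 and -2.41 from the median.

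In collagen IV 3 genes lay above 0 and 3 below, from -0.38 for COL4A4 (adjusted p = 0.232) to 0.20 for COL4A6. FACIT collagens ranged from -0.45 for COL16A1 to 0.29 for COL22A1. COL12A1, a FACIT that coats type I fibrils, read 10.91, 11.00 and 10.68 with control peptide and 10.54, 10.65 and 10.60 with metastin-10, which did not overlap. Its difference was -0.27 (adjusted p = 0.451), and its next probe sets gave -0.36 (adjusted p = 0.113) and -0.30.

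No laminin passed the test. The 10 ranged from -0.28 for LAMB1 to 0.28 for LAMA4, with 5 above 0 and 5 below. LAMC1, the gamma chain shared by most laminins, read 10.78, 10.87 and 10.41 with control peptide and 10.79, 10.78 and 10.32 with metastin-10, a difference of -0.05 (-0.47 to 0.36). LAMA5 read 9.75, 9.80 and 9.48 against 9.59, 9.72 and 9.42, and LAMB1 9.53, 9.65 and 9.34 against 9.07, 9.40 and 9.21. The groups overlapped for all 3. In 6 of the 10 laminins the 95% interval lay within 0.5 log2 units of 0, against 82.4% of all genes.

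Read as a list, the 53 genes had a median difference of -0.05, against 0.0072 over all genes tested. Of the 53 genes 31 lay below 0, against 9484 of all 19775. The groups did not overlap for 12 of the 53 in the lower direction and 3 in the higher, where 10.9% and 8.72% of all genes did so. At an unadjusted p under 0.05 there were 12 of 53 (22.6%) against 11.9% of all genes. The 15 genes well above the median had a median of -0.20, and 13 lay below 0. The 8367 genes of the array that were well above had a median of -0.04, and 5243 lay below 0. The other 38 had a median of 0.01, against 0.05 for genes under that threshold. Of the 53 intervals 34 (64.2%) lay within 0.5 of 0, against 82.4% of all genes.

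Values that moved with this group are given beside these counts. The mean of the 8 epithelial markers over the array median was at most 6.11 in the control siRNA arrays with metastin-10 and 6.14 to 6.37 in the other 9. That of the 8 stromal markers was -0.99 to -0.91, inside the range of -1.10 to -0.90 of the other 9, and the levels of the 8 ran from -2.60 (LUM) to 0.86 (THY1), 6 of them below the median. In the metastin-10 comparison under control siRNA 1 of the 8 epithelial markers was lower and 7 lay below 0 (median -0.19). Above 0 lay 7 of 8 stromal, 5 of 7 endothelial and 4 of 4 leukocyte markers (medians 0.11, 0.12 and 0.10). Of these 0 passed. All genes leaned the same way by level. Of those well above the median 5243 of 8367 lay below 0, and of those under that threshold 7167 of 11408 lay above 0. The groups did not overlap for 4 epithelial markers in the lower and 3 stromal and 1 leukocyte marker in the higher direction. Among all genes this held for 1340 of the 8367 in the lower and 1126 of the 11408 in the higher direction. By the adjusted p 68 of the 8367 were lower. The part of the markers in the collagen differences was not tested. In a bulk sample fewer cells of a kind and less RNA per cell cannot be told apart.

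Under the GPR54 label, metastin-10 gave 0 calls among the 53 genes in limma, and 0% of all genes. Only COL4A3 had an unadjusted p under 0.05 (0.32, 95% interval 0.02 to 0.61), against 1.81% of all genes. The groups did not overlap for 2 genes in the lower direction (COL6A3 and COL25A1) and 0 in the higher, where 2.35% and 2.33% of all genes did so. COL6A1 differed by 0.03 (-0.16 to 0.22), an interval that does not reach the -0.65 seen under control siRNA, and COL5A2 by -0.17 (-0.51 to 0.17). The next smallest p values belonged to COL8A1 (-0.15), COL25A1 (-0.18), COL6A6 (-0.25) and COL4A4 (-0.19). Of the 53 intervals 45 (84.9%) lay within 0.5 of 0, against 93.2% of all genes.

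**Figure D4:**
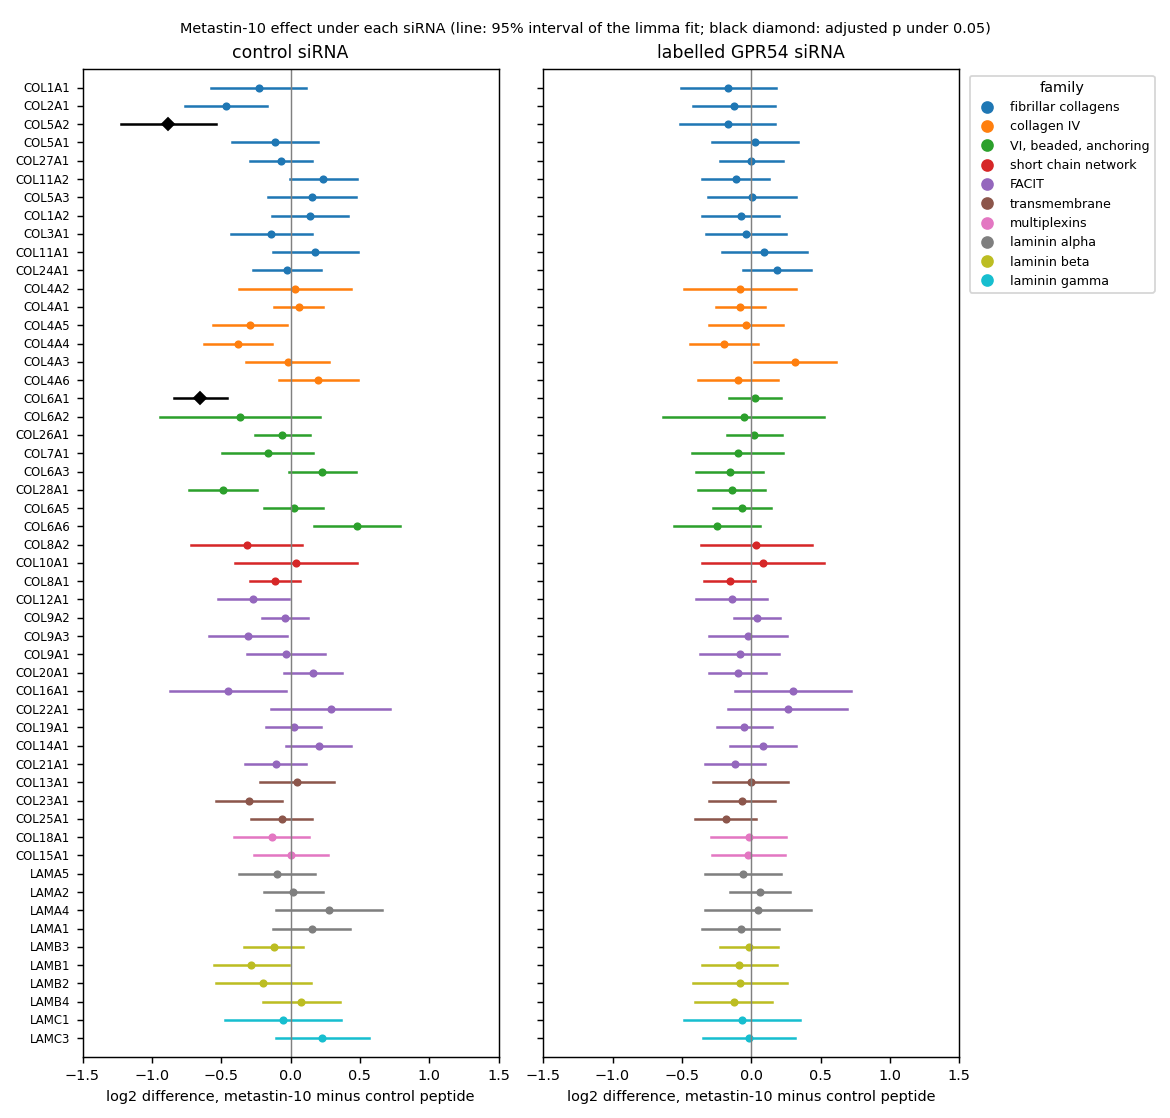
Metastin-10 minus control peptide (log2) for the 53 genes under each siRNA label, with 95% intervals of the limma fit and families in colour. The black diamonds are COL6A1 and COL5A2, both under control siRNA, and no gene is so marked in the arrays labelled GPR54 siRNA.

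The difference between those metastin-10 effects was tested as the interaction, and 0 of the 53 passed (0.106% of all genes did, 0.0961% in the higher and 0.0101% in the lower direction). At an unadjusted p under 0.05 there were 7 of them, against 6.28% of all genes. COL6A1 had an interaction of 0.68 ± 0.12 (95% interval 0.41 to 0.95, adjusted p = 0.105 in limma) and COL5A2 one of 0.71 ± 0.22 (0.23 to 1.20, adjusted p = 0.557). COL6A6, whose adjusted p of 0.441 was smaller than that of COL5A2, had an interaction of -0.73. COL16A1 had one of 0.75 (adjusted p = 0.653) and COL6A3 one of -0.39 (0.738). For COL6A1 alternatives that block the replicate 3 arrays, weight arrays, let the variance follow the level or drop dim probe sets moved the adjusted p below 0.05, to between 0.0108 and 0.0490, at differences of 0.68 to 0.74. With the mean of its probe sets the interaction was 0.072 (adjusted p = 0.931), and in the other 4 alternatives its adjusted p was 0.0543 to 0.170.

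Between the siRNA labels with control peptide, 0 of the 53 genes passed in limma, and 0% of all genes. At an unadjusted p under 0.05 there were COL28A1 (-0.28) and COL6A6 (0.34), against 2.8% of all genes. COL8A1 was higher without overlap, and COL28A1 and COL4A3 lower, where 6.34% and 2.9% of all genes were. The next by p were COL8A1 (0.17), COL4A3 (-0.24) and LAMA1 (0.21). COL6A1 differed by 0.06 (-0.13 to 0.25) and COL5A2 by 0.04 (-0.31 to 0.38).

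Between the siRNA labels with metastin-10, the GPR54 label was higher in 1 of the 53 genes and lower in 0, against 0.966% and 0.0708% of all genes (1.04% either way). This comparison shares its control siRNA arrays with the first one above and is not independent of it. COL6A1 was higher by 0.74 ± 0.09 (95% interval 0.55 to 0.93), 1.67-fold, with an adjusted p of 0.00201 in limma. The mean of its probe sets gave 0.15 with an adjusted p of 0.350, which ends this call. COL5A2 was 0.75 ± 0.16 apart (0.41 to 1.09) and missed the threshold at an adjusted p of 0.0610, although its groups did not overlap. Without replicate 3 of the GPR54 label with metastin-10, COL5A2 passed at 0.0120, and the count became 2. It also passed with replicate 3 as a block (0.00193) and in 7 of 10 alternatives in all, at differences of 0.70 to 0.88, and its adjusted p was 0.0619 to 0.224 in the other 3.

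The next smallest p values were those of COL20A1 (-0.29, adjusted p = 0.299), COL6A6 (-0.39, 0.363) and COL9A3 (0.35, 0.374). The groups did not overlap for 8 genes in the higher and 5 in the lower direction, against 11.2% and 6.35% of all genes. COL6A2 differed by 0.54 (-0.04 to 1.11), with 7.25, 7.36 and 6.40 against 6.70, 6.57 and 6.15. Its replicate 3 arrays were the lowest in both groups, and in a fit with those arrays as a block its adjusted p was 0.0227.

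The replicate 3 arrays were lower for many of the chains well above the median. In 9 of the 53 genes (17%) replicate 3 was the lowest array in all 4 groups, against 11.4% of all genes, and COL13A1, a transmembrane collagen, was the 1 gene highest in all 4. Among the 15 well above the median it was 7 (46.7%), against 21.3% of all genes at that level. Replicate 3 minus the mean of replicates 1 and 2, averaged over the groups, was -0.66 for COL6A2, -0.48 for LAMC1, -0.44 for COL4A2, -0.35 for LAMB2, -0.34 for COL5A2, and -0.28 for COL1A1 and LAMA5. The actin difference given above moved with it, and its part was not tested. In replicates 1 and 2 alone the metastin-10 differences under control siRNA were -0.73 for COL6A1 (adjusted p = 0.0246 in limma) and -0.93 for COL5A2 (adjusted p = 0.0181), a choice made after seeing the data.

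Genes that make, dress or hold these chains were read as lists. Of 30 measured genes for collagen folding, modification and processing, 1 was lower with metastin-10 under control siRNA. It was P4HA1, a catalytic subunit of the prolyl 4-hydroxylase that stabilises the triple helix (-0.53 ± 0.09, adjusted p = 0.0215 in limma), and the list's median was -0.06 against 0.0072 over all genes, of which 0.531% were lower. With metastin-10, P4HA1 (0.69, adjusted p = 0.00288) and LOXL2, a lysyl oxidase that crosslinks collagen (0.91, adjusted p = 0.0313), were higher in the arrays labelled GPR54 siRNA than with control siRNA, and the list's median was 0.09 against 0.0007 over all genes, of which 0.966% were higher. Of 14 basement membrane partners, 0 passed in the first comparison and 1 was higher in the second, SMOC2, a calcium-binding matrix protein (0.62, adjusted p = 0.00833). Of 13 measured collagen and laminin receptors, 0 passed in either. In the other 3 contrasts 0 genes of these lists passed.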

How the data were processed

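The values are log2 RMA values as deposited by the authors in 1 table, with RMA named in the submitters' processing notes. This method removes background, gives the arrays a common distribution by quantiles and summarises each probe set. Its software was not given in the sources used here. Quantile normalization would hide a shift of most genes one way, and differences of dim probe sets may be compressed. No detection calls or scanner files were used. Probe sets were named through the platform annotation, and 54613 of 54675, the non-control ones, were tested with no filter and no pseudocount.

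The fit used lmFit and eBayes of limma 3.58.1 (R 4.3.3), with 4 group means over 12 arrays with 8 residual degrees of freedom, for 5 contrasts, two-sided, with Benjamini-Hochberg adjustment over all probe sets of a contrast and a threshold of 0.05. Intervals are 95% from the fit, with a median half-width of 0.27 over the 53 genes. The number of arrays limits the precision. The script was tested on simulated data.

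The genes, lists and marker sets were chosen with earlier results of these data known. Any collagen or laminin could be named. Array values are given for genes past the threshold in any contrast and for at most 8 others well above the median, and per contrast the genes with the smallest p, up to 5, are named. COL6A2 was added after its values were seen.

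Replicates are numbered 1 to 3 in each group. Deviations of same-numbered arrays correlated above 0.1 in all 3 pairs for metastin-10 under control siRNA (0.17 to 0.44), under the GPR54 label (0.26 to 0.52) and for the siRNA with control peptide (0.11 to 0.54), and not for the siRNA with metastin-10 (-0.15 to 0.26). Alternatives were a replicate block, a block for the replicate 3 arrays, the compared groups alone, array weights, an intensity trend, renewed quantile normalization, a filter on dim probe sets, the mean of a gene's probe sets, leaving out each array, and replicates 1 and 2 only (added after seeing the data).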

Additional observations from a re-analysis of the deposited data

How the results depend on the processing

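COL6A1 under metastin-10 and control siRNA kept its call in all 12 fits without 1 array (adjusted p 0.00542 to 0.0483) and lost it with the mean of its probe sets. The count there of 2 became 1 in the compared groups alone (COL6A1) and 1 with the mean of probe sets (COL5A2), was 3 with array weights and with renewed quantile normalization (COL28A1 added), and was 1 to 2 without single arrays. With the replicate block it was 2 (COL6A1 0.00566, COL5A2 0.00261). Metastin-10 in the arrays labelled GPR54 siRNA, and the siRNA with control peptide, gave 0 in all alternatives.

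For the siRNA with metastin-10 the count of 1 became 3 with the replicate block (COL5A2 0.00425 and COL6A2 0.0399 added), 3 with the replicate 3 block, 4 with array weights, 2 with the intensity trend, 2 with the filter, which left 29 of the genes and 27232 probe sets, and 3 with replicates 1 and 2 only, and it was 1 to 2 without single arrays. With the mean of probe sets it was 1, but COL5A2 (0.0276) in place of COL6A1 (0.15, adjusted p = 0.350). Deviations of same-numbered arrays did not correlate above 0.1 in every pair of that comparison (-0.15 to 0.26). By the actin difference the replicate 3 arrays still stood apart in each group. The interaction count of 0 became 1 with the replicate 3 block, 2 with array weights, 1 with the trend and 1 with the filter, and was 0 with the replicate block and without single arrays. The blocked fits changed no other call. The cause of these changes was not tested.

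Signs were followed for COL6A1, COL5A2 and COL6A2, and those that turned belonged to values with no call. For metastin-10 in the arrays labelled GPR54 siRNA they were COL5A2 (0.0028) and COL6A2 (0.14) with array weights, COL6A1 (-0.014) with the mean of probe sets and COL6A2 (0.0023) in replicates 1 and 2 only. For the siRNA with control peptide COL5A2 gave -0.0068 with array weights and -0.0022 in replicates 1 and 2 only. Without single arrays COL6A1 ran from -0.025 to 0.086, COL5A2 from -0.27 to 0.013 and COL6A2 from -0.30 to 0.25 in the former comparison, and COL5A2 from -0.084 to 0.12 in the latter. The 15 genes well above the median became 20 at 1 log2 unit, 10 at 3 and 10 with the mean of probe sets, and 14 to 15 without single arrays.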
